A study of Sus scrofa with 14 samples.

Results

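The genes described here encode subunits and assembly factors of the 5 complexes of oxidative phosphorylation, followed in the oxyntic mucosa (OXY) and pyloric mucosa (PYL) of the young pig. They were chosen by symbol, with earlier results of these data known. Every gene whose symbol begins with NDUF, SDHA to SDHD, UQCR, COX and a digit, or ATP5 was taken. This gave 52 genes of the 10912 with a single symbol on the array: 22 of complex I, 1 of complex II, 2 of complex III, 9 of complex IV, 10 of complex V (the ATP synthase) and 8 assembly factors. A symbol with several rows was represented by the row with the highest mean signal. Samples of both mucosae came from the same 7 male crossbred (Large White x Landrace) weaned pigs, aged 5 to 6 weeks and weighing 11.1 kg on average, which had received a standard diet after weaning for 5 days. OXY was cut from the greater curvature and PYL near the pyloric sphincter. No pig received a treatment or carried an engineered allele. The samples went through the whole wall, so muscle and other layers entered both groups. RNA was hybridized to whole-transcript porcine arrays, 7 for OXY and 7 for PYL. All levels below are log2 intensities, and all changes are OXY minus PYL on that log2 scale, so that a change above 0 means a gene more expressed in OXY.

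The respiratory chain passes electrons from NADH through complex I, and from succinate through complex II, to ubiquinone. Complex III hands them on to cytochrome c, and complex IV (cytochrome c oxidase) gives them to oxygen. Complexes I, III and IV pump protons across the inner mitochondrial membrane, and the ATP synthase uses their return to make ATP. The parietal cell of the oxyntic gland, which secretes acid through the ATP-consuming H+/K+-ATPase, is known for being packed with mitochondria, whereas pyloric glands hold mainly mucous cells and gastrin-producing G cells.

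The labels of the mucosae were checked first. ATP4A, the catalytic subunit of the H+/K+-ATPase, had levels of 11.93 to 12.33 in the 7 OXY arrays and 4.21 to 4.97 in the 7 PYL arrays. ATP4B, its other subunit, averaged 11.64 ± 0.34 in OXY and 5.71 ± 0.48 in PYL (SD, n = 7 each). GAST, the gastrin gene, had 4.96 to 5.90 in OXY and 8.85 to 11.47 in PYL. All 3 genes separated the groups without overlap. The arrays formed 2 sets by their overall distribution, with medians of 4.83 to 4.92 in pigs 1 to 3 and 5.63 to 5.73 in pigs 4 to 7. Each set held both mucosae of its pigs, so an even shift between the sets cancels in a difference within a pig. The shift was not even along the scale. The lowest values of the arrays were 1.22 to 1.46 in pigs 1 to 3 and 2.19 to 2.34 in pigs 4 to 7. The highest were 12.56 to 12.62 and 12.87 to 12.93. The part of this in the size of the differences was not tested. The PYL arrays of pigs 4 and 7 stood apart: their Spearman correlation over all rows was 0.989 with each other and 0.954 to 0.965 with the PYL arrays of pigs 5 and 6. GAST was also lowest in these 2 PYL samples, 8.85 in pig 4 and 9.27 in pig 7.

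Of the 52 genes, 37 (71.2%) were more expressed in OXY and 0 were more expressed in PYL (limma with the pig as a block, Benjamini-Hochberg adjusted p under 0.05). Over all named genes 8.52% passed in the direction of OXY and 5.1% in that of PYL, and over all 27460 rows, named or not, 6.88% and 4.46% did. Without the pig in the model, 7 of the 52 genes passed (1.68% of named genes). The spread between pigs, including the shift between the array sets, then enters the error. The median change of the 52 genes was 0.54, a 1.45-fold difference, beside a median of 0.0 for all named genes. The changes ran from -0.02 for NDUFAF6 to 1.18 for COX17, and 51 of 52 were above 0. Of the 364 differences within pigs, 340 (93.4%) were above 0, against 51.0% over all named genes. In 40 of the 52 genes OXY was higher in all 7 pigs, a pattern held by 9.64% of named genes. Among the 37 genes that passed, the smallest was 0.34 (1.27-fold) and the largest 1.18 (2.26-fold), 27 reached 0.5 (5.2% of named genes) and 2 reached 1 (1.84%). In 6 genes (NDUFB11, COX5B, ATP5G3, ATP5A1, ATP5G1 and COX17) every OXY array lay above every PYL array, which 1.22% of named genes showed, and 36 genes were separated in this way inside each array set (5.54% of named genes). Of the 15 genes that did not pass, 6 had an unadjusted limma p under 0.05 with a change above 0, and 0 had one with a change below 0. The methods' repeated-measures test also found 0 genes higher in PYL. In samples of whole tissue, fewer cells of a type and less RNA per cell cannot be told apart.

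**Figure D1:**
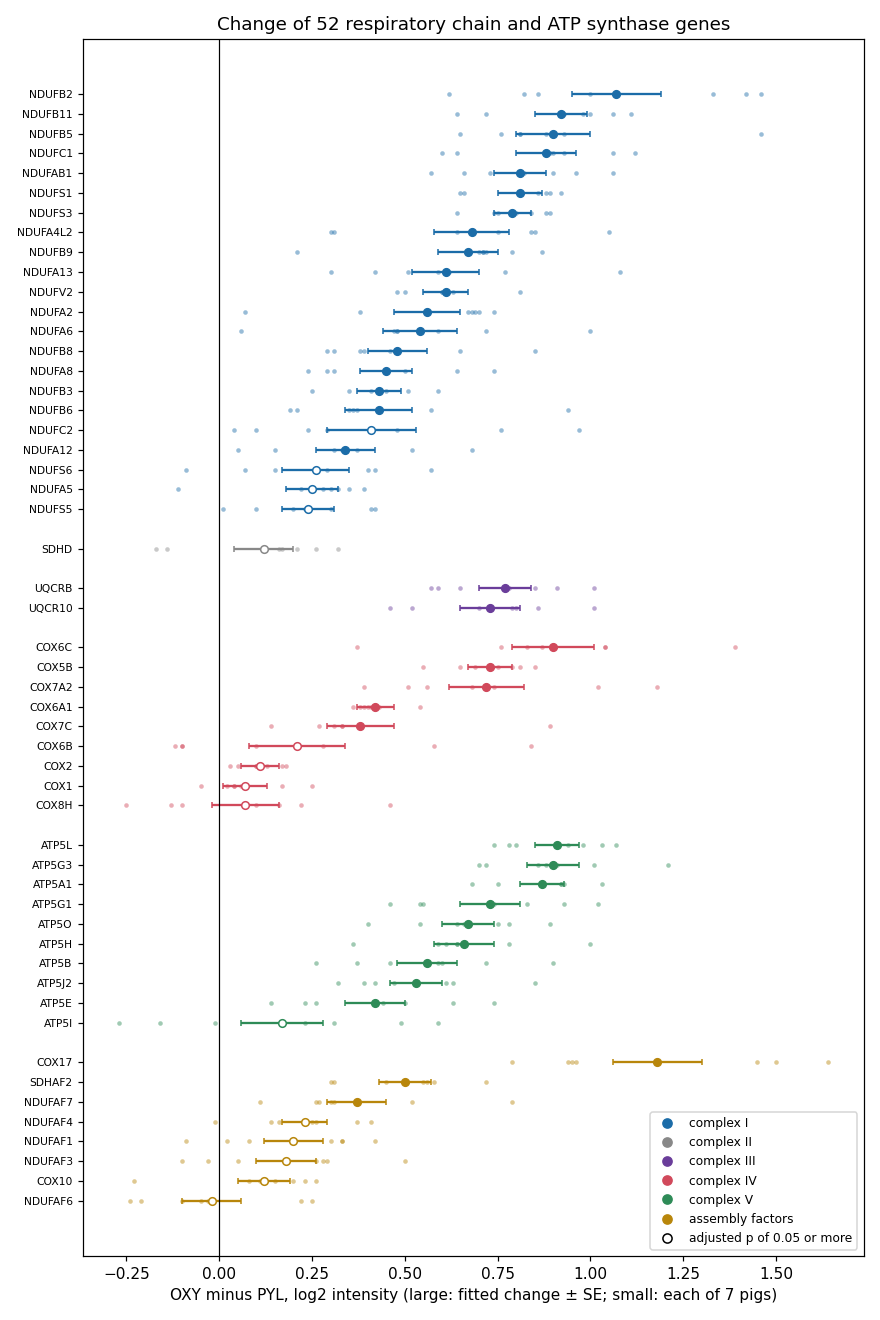
Change (OXY minus PYL, log2 intensity, horizontal axis) of each of the 52 genes, grouped by complex, with the fitted change ± SE as large points and the 7 differences within pigs as small points. Filled points mark the 37 genes with an adjusted p under 0.05, all on the right of 0. Open points mark the 15 others, of which only NDUFAF6 lies below 0 (-0.02).

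Complex I, the NADH dehydrogenase and the largest of the complexes, contributed 22 genes, of which 18 rose in OXY. The median change of all 22 was 0.58, with a range of 0.24 to 1.07. Every one of them had a change above 0, and 20 were higher in OXY in all 7 pigs. The membrane arm, where protons are pumped, held the largest changes. NDUFB2, an accessory subunit of this arm, had 8.09 to 9.26 in OXY (median 9.04) and 6.94 to 8.63 in PYL (median 7.79). The levels of the groups overlapped over all arrays, but inside each array set all OXY samples were above all PYL samples. Its change was 1.07 (SE 0.12, limma adjusted p = 0.00073), with OXY above PYL in all 7 pigs. NDUFB11, another membrane arm subunit, had 8.86, 8.75, 9.12, 9.15, 8.97, 9.15 and 8.95 in OXY of pigs 1 to 7, and 8.22, 8.03, 8.01, 8.08, 7.99, 8.14 and 8.02 in PYL of the same pigs. No PYL array reached the lowest OXY array, and the SD was small in both (0.15 in OXY and 0.08 in PYL). The change of NDUFB11 was 0.92 (SE 0.07, limma adjusted p = 0.00016). NDUFB5 averaged 9.08 ± 0.36 in OXY and 8.18 ± 0.51 in PYL (SD, n = 7 each), a change of 0.90 (SE 0.10, limma adjusted p = 0.00067), and its difference was above 1 in pig 1 alone (1.46). NDUFC1 averaged 8.47 ± 0.70 in OXY and 7.59 ± 0.69 in PYL, a change of 0.88 (SE 0.08, limma adjusted p = 0.00026) with differences between 0.60 and 1.12.

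The peripheral arm of complex I, which takes the electrons from NADH and carries them to ubiquinone, gave 6 of 8 genes higher in OXY with a median change of 0.55, beside 10 of 12 and 0.54 in the membrane arm. NDUFS1, the largest iron-sulfur subunit, had 8.31 to 8.52 in OXY of pigs 1 to 3 and 7.61 to 7.66 in their PYL, and 9.16 to 9.44 in OXY of pigs 4 to 7 and 8.43 to 8.58 in their PYL. Its OXY levels were thus clear of its PYL levels in either set, and the difference stayed between 0.65 and 0.92 in all 7 pigs. The change was 0.81 (SE 0.06, limma adjusted p = 0.00011). NDUFS3, a core subunit beside the ubiquinone site, changed by 0.79 (SE 0.05, limma adjusted p = 7.9e-05) and NDUFV2, an iron-sulfur subunit of the NADH-oxidizing module, by 0.61 (SE 0.06, limma adjusted p = 0.00037). NDUFAB1, the mitochondrial acyl carrier protein that sits in both arms, averaged 9.03 ± 0.58 in OXY and 8.22 ± 0.56 in PYL, a change of 0.81 (SE 0.07, limma adjusted p = 0.00026). The accessory genes NDUFA2, NDUFA6, NDUFA8, NDUFA12, NDUFA13, NDUFB3, NDUFB6, NDUFB8 and NDUFB9 also passed, with changes of 0.34 (NDUFA12) to 0.67 (NDUFB9). The calls of NDUFA12 and NDUFB6 were near the threshold: with 1 pig left out they passed in 2 and 3 of 7 fits, and in the methods' test their adjusted p was 0.059 and 0.057. The call of NDUFA6 was lost with the mean of its 2 rows. NDUFA4L2, a paralogue of NDUFA4 counted with complex I by its symbol, changed by 0.68 at a low signal (4.71 ± 0.30 in OXY and 4.03 ± 0.46 in PYL).

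The 4 complex I genes that did not pass all had 95% confidence intervals above 0: NDUFC2 changed by 0.41 (0.14 to 0.68), NDUFS6 by 0.26 (0.06 to 0.45), NDUFA5 by 0.25 (0.09 to 0.41) and NDUFS5 by 0.24 (0.09 to 0.39). Their limma adjusted p lay between 0.054 and 0.098. For NDUFC2, a membrane arm subunit, the differences in pigs 4 and 7 were 0.76 and 0.97, and those in the other pigs were 0.04 to 0.48. NDUFB6, which passed, had the same feature, with 0.57 in pig 4, 0.94 in pig 7 and 0.19 to 0.37 elsewhere. Pigs 4 and 7 are those whose PYL arrays stood apart, and the part of those arrays in the size of these differences was not tested.

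**Figure D2:**
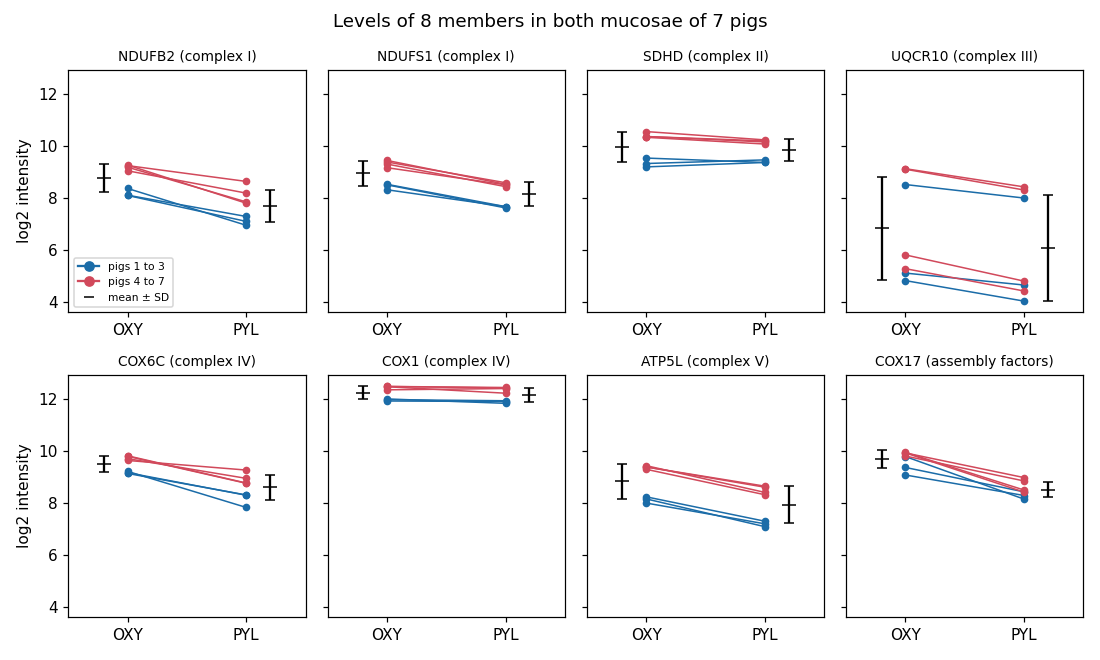
Levels (log2 intensity, vertical axis) of 8 genes in OXY (left) and PYL (right), one line per pig, blue for pigs 1 to 3 and red for pigs 4 to 7, with the mean ± SD of each group. Lines fall to the right in all 7 pigs for NDUFB2, NDUFS1, UQCR10, COX6C, ATP5L and COX17, SDHD and COX1 are nearly level, and UQCR10 lies in separate high (pigs 1, 4 and 6) and low (pigs 2, 3, 5 and 7) bands in both mucosae.

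Complex II, the succinate dehydrogenase of the citrate cycle, was represented by SDHD alone, the small membrane anchor of the complex. SDHD had 9.32, 9.19 and 9.53 in OXY of pigs 1 to 3 against 9.46, 9.36 and 9.36 in their PYL, and 10.55, 10.36, 10.36 and 10.33 in OXY of pigs 4 to 7 against 10.23, 10.19, 10.15 and 10.07 in their PYL. OXY was higher in 5 of 7 pigs and lower in pigs 1 and 2. The change of 0.12 (SE 0.08) did not pass (limma adjusted p = 0.39), and its 95% confidence interval was -0.06 to 0.29, whose upper end is below the median change of the 52 genes. A second row of SDHD, with a signal of 4.65 ± 0.40 in OXY and 4.43 ± 0.41 in PYL, had a change of 0.22 (limma adjusted p = 0.14).

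Both complex III genes of the symbol rule, nuclear-encoded subunits of the cytochrome bc1 complex, rose in OXY. CYTB, its mitochondrially encoded core, lies outside the rule and did not pass (change 0.07, limma adjusted p = 0.63). UQCRB, a small subunit that takes part in ubiquinone binding, had 8.83 to 9.61 in OXY (median 9.48) and 8.26 to 8.96 in PYL (median 8.63). The change was 0.77 (SE 0.07, limma adjusted p = 0.00033, 7 of 7 pigs). UQCR10, one of the smallest subunits, had 8.51, 4.81, 5.10, 9.10, 5.27, 9.12 and 5.80 in OXY of pigs 1 to 7, and 7.99, 4.02, 4.64, 8.30, 4.41, 8.42 and 4.79 in PYL of the same pigs. Pigs 1, 4 and 6 were high and pigs 2, 3, 5 and 7 low, in both mucosae alike and in both array sets. The difference between OXY and PYL was nevertheless alike in high and low pigs, 0.46 to 1.01, and the change was 0.73 (SE 0.08, limma adjusted p = 0.00062). The mean of both mucosae spanned 3.83 among pigs 1 to 3 (14.3-fold) and 3.93 among pigs 4 to 7 (15.3-fold). In the other 51 genes the span between pigs of one set was at most 0.61. UQCR10 ranked first among all 10912 named genes when ordered by the smaller of the spans in the 2 sets, and no other named gene exceeded 3 in both, an ordering made after the values were seen. Its mean ± SD over pigs (6.82 ± 1.99 in OXY and 6.08 ± 2.04 in PYL) therefore describes no single pig, and without the pig in the model the change did not pass.

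Complex IV had 5 of 9 genes higher in OXY, with a median change of 0.38 and a range of 0.07 to 0.90. The 7 subunits encoded in the nucleus gave all 5 calls. COX6C, a small subunit of the membrane part, had 9.14 to 9.82 in OXY and 7.83 to 9.27 in PYL, a change of 0.90 (SE 0.11, limma adjusted p = 0.0013). Its differences were uneven, with 1.39 in pig 1 and 0.37 in pig 6. COX5B, the zinc-binding subunit, had 9.42 to 10.04 in OXY and 8.82 to 9.39 in PYL, with no overlap, and changed by 0.73 (SE 0.06, limma adjusted p = 0.00016). COX7A2, the liver-type isoform of subunit VIIa, averaged 9.26 ± 0.45 in OXY and 8.54 ± 0.40 in PYL (change 0.72, SE 0.10, limma adjusted p = 0.0027). COX6A1, the corresponding liver-type isoform of subunit VIa, changed by 0.42 (SE 0.05, limma adjusted p = 0.0012) with differences of 0.36 to 0.54, a narrow spread. COX7C changed by 0.38 (SE 0.09, limma adjusted p = 0.028), and its difference was above 0 in all 7 pigs, with 0.89 in pig 3 and 0.14 to 0.38 in the others. Without pig 3 it still passed (limma adjusted p = 0.025), and without pig 1, 4 or 5 the limma adjusted p was above the threshold (at most 0.064). The change stayed between 0.29 and 0.42 in all fits with 1 pig left out. The call of COX7C was also lost with the mean of its 2 rows, and in the methods' test its adjusted p was 0.063. COX6B did not pass, with differences of 0.84 in pig 4, 0.58 in pig 7 and -0.12 to 0.28 in the other pigs (change 0.21, limma adjusted p = 0.35). COX8H, the heart-type isoform of subunit VIII, had a signal near the lower end of the array (2.97 ± 0.52 in OXY and 2.91 ± 0.55 in PYL) and did not pass (change 0.07, limma adjusted p = 0.71).

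COX1 and COX2, the catalytic core subunits of complex IV, are encoded in the mitochondrial genome, and neither passed. COX1 had 11.93 to 12.49 in OXY (median 12.36) and 11.84 to 12.45 in PYL (median 12.23), a change of 0.07 (SE 0.06, limma adjusted p = 0.46) with a 95% confidence interval of -0.05 to 0.20. COX2 had 11.70 to 12.21 in OXY (median 12.13) and 11.59 to 12.10 in PYL (median 12.03), a change of 0.11 (SE 0.05, limma adjusted p = 0.21) with an interval of -0.00 to 0.22. The differences of COX2 were small but above 0 in all 7 pigs (0.03 to 0.18), the exact sign-flip p was 0.016 before any adjustment, and COX2 passed in the methods' repeated-measures test. The intervals of both genes thus end well below the median change of 0.42 of the nuclear-encoded subunits of the same complex. Intensities of these rows were among the highest on the array (ranks 5 and 11 of 10912). The highest value of an array was 12.56 (PYL of pig 2) to 12.93 (PYL of pig 4). Whether changes are made smaller near this upper end was not tested. The same small changes were seen in the other mitochondrially encoded genes with high signal: ND5 changed by 0.11, ND1 and ND3 by 0.08 each and CYTB by 0.07, and none passed. Of the 8 measured genes of the mitochondrial genome only ND2, with a signal of 5.30 ± 0.07 in OXY and 5.05 ± 0.16 in PYL, passed (change 0.25, limma adjusted p = 0.034). ND6, at a low signal (3.24 ± 0.39 in OXY and 2.87 ± 0.49 in PYL), had the largest change of the 8 without passing (0.37, limma adjusted p = 0.09).

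Complex V gave 9 of 10 genes higher in OXY, with a median change of 0.66 and a range of 0.17 to 0.91. In the F1 part, where ATP is made, ATP5A1 (subunit alpha) had 10.35 to 11.09 in OXY and 9.43 to 10.17 in PYL. No PYL array reached the OXY range, and the change was 0.87 (SE 0.06, limma adjusted p = 7.9e-05). ATP5B, the catalytic subunit beta, averaged 11.30 ± 0.31 in OXY and 10.74 ± 0.37 in PYL (change 0.56, SE 0.08, limma adjusted p = 0.0037), and ATP5E, the epsilon subunit of the central stalk, changed by 0.42 (SE 0.08, limma adjusted p = 0.014). Differences of ATP5B ran from 0.26 in pig 7 to 0.90 in pig 6.

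Subunit c forms the rotating ring in the membrane, and its isoforms are encoded by separate genes that differ in the import sequence. ATP5G3 had 9.95, 10.07, 10.00, 10.03, 10.14, 10.23 and 10.09 in OXY of pigs 1 to 7 against 9.09, 9.16, 9.30, 9.15, 8.93, 9.22 and 9.38 in PYL of the same pigs. ATP5G1 had 10.85, 10.64, 10.94, 11.02, 10.83, 11.13 and 10.91 in OXY against 10.11, 10.18, 10.39, 10.18, 10.29, 10.20 and 9.89 in PYL. In both isoforms the mucosae were separated without overlap, and neither was shifted between the array sets to the extent seen in ATP5A1. The change was 0.90 for ATP5G3 (SE 0.07, limma adjusted p = 0.00017) and 0.73 for ATP5G1 (SE 0.08, limma adjusted p = 0.00096). The change of ATP5G3 exceeded that of ATP5G1 by 0.17 (SD 0.31, SE 0.12), in 6 of 7 pigs, and this difference was within the spread between pigs (exact two-sided sign-flip permutation p = 0.22, smallest possible 0.016). It was 0.09 to 0.25 with single pigs left out. Without pig 7, the only one with the opposite sign (-0.30), it was 0.25 with an exact sign-flip p of 0.031. With the same sign in all 6 pigs left, this p is the smallest possible. It was fixed by leaving out pig 7, so nothing is drawn from it. Of 9 isoform pairs considered, this was the only one with both genes measured.

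The stalk and the remaining membrane subunits of complex V followed. ATP5O, which links the F1 head to the peripheral stalk, changed by 0.67 (SE 0.07, limma adjusted p = 0.00061) and ATP5H, subunit d of the stalk, by 0.66 (SE 0.08, limma adjusted p = 0.0011). ATP5L, subunit g of the membrane part where ATP synthases form dimers, had 8.0 to 8.24 in OXY and 7.09 to 7.30 in PYL of pigs 1 to 3, and 9.30 to 9.44 in OXY and 8.32 to 8.65 in PYL of pigs 4 to 7. It had the largest change of the complex, 0.91 (SE 0.06, limma adjusted p = 7.9e-05), and all of its differences lay between 0.74 and 1.07. ATP5J2, subunit f, changed by 0.53 (SE 0.07, limma adjusted p = 0.0027). ATP5I, subunit e, was the exception: its signal averaged 5.21 ± 0.50 in OXY and 5.04 ± 0.33 in PYL, OXY was higher in 4 of 7 pigs, and the change of 0.17 (SE 0.11) did not pass (limma adjusted p = 0.40).

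Assembly factors, which are needed to build the complexes but are not part of them, gave 3 of 8 genes higher in OXY with a median change of 0.21, beside 34 of 44 and 0.58 for the subunits. The difference between these shares was not tested. COX17, the copper chaperone that supplies complex IV, had the largest change of all 52 genes. Its levels were 9.79, 9.08, 9.37, 9.95, 9.81, 9.93 and 9.93 in OXY of pigs 1 to 7 against 8.15, 8.29, 8.43, 8.50, 8.85, 8.98 and 8.42 in PYL of the same pigs. The lowest OXY array (9.08, pig 2) was above the highest PYL array (8.98, pig 6), and the change was 1.18 (SE 0.12, limma adjusted p = 0.0005). SDHAF2, required for attaching the flavin to SDHA of complex II, averaged 6.63 ± 0.71 in OXY and 6.13 ± 0.61 in PYL (change 0.50, SE 0.07, limma adjusted p = 0.0023). NDUFAF7, a methyltransferase needed early in complex I assembly, changed by 0.37 (SE 0.08, limma adjusted p = 0.026), with a limma adjusted p above 0.05 after leaving out pig 1, 3, 4, 5 or 6. The other 4 complex I factors, NDUFAF4, NDUFAF1, NDUFAF3 and NDUFAF6, had changes of 0.23, 0.20, 0.18 and -0.02 and did not pass, nor did COX10, the heme O synthase that prepares the heme of complex IV (0.12). Outside the symbol rule, 1 of 13 measured assembly factors passed, TMEM177, a factor of COX2 assembly (change 0.48, limma adjusted p = 0.0024). This is 7.69%, near the 8.52% over all named genes. The median change of the 13 was 0.15, with a range of -0.37 (PNKD) to 0.48. The share depends on how the lists were drawn up: AIFM1, also needed for assembly, was counted with the electron carriers below (change 1.35).

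The direction was shared by all pigs. The median difference of the 52 genes was 0.52, 0.46, 0.51, 0.61, 0.48, 0.42 and 0.68 in pigs 1 to 7, with 46 (pig 3) to 51 (pig 4) genes above 0. It was highest in pigs 4 and 7. Without these pigs 34 genes passed (8.6% of named genes in the same fit) and the median change was 0.50, and the calls lost were those of ATP5E, COX7C and NDUFA12. Within the array sets the fits had fewer pigs: 17 genes passed in pigs 1 to 3 (3.12% of named genes) and 24 in pigs 4 to 7 (3.52%), with median changes of 0.50 and 0.56. Between the complexes, the median of complex V was above that of the assembly factors in each pig, and the mitochondrially encoded COX1 and COX2 had a median of -0.00 to 0.21 per pig, beside 0.36 to 0.84 for the nuclear-encoded complex IV genes. These orders are descriptions over members and carry no test.

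**Figure D3:**
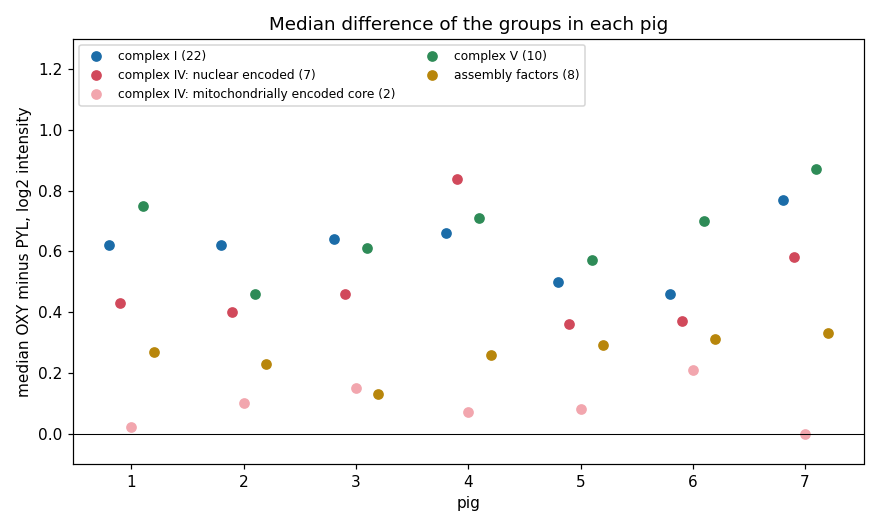
Median difference (OXY minus PYL, log2 intensity, vertical axis) of the genes of each group within each of 7 pigs (horizontal axis), with the number of genes in parentheses. Complex I (0.46 to 0.77) and complex V (0.46 to 0.87) lie above the assembly factors (0.13 to 0.33) and above the mitochondrially encoded COX1 and COX2 (-0.00 to 0.21) in every pig.

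Genes that feed or accompany the chain were compared by the same test. Over all named genes 8.52% were higher in OXY and 5.1% in PYL. Of 18 measured genes listed for the citrate cycle and pyruvate dehydrogenase, 11 (61.1%) rose and 0 fell in OXY, with a median change of 0.43. The list also holds regulators of pyruvate dehydrogenase. Among these, PDK3 (-0.38), PDP1 (-0.26) and PDK4 (-0.02) had changes below 0 without passing, and the other 15 genes had changes above 0. IDH2, the mitochondrial NADP-dependent isocitrate dehydrogenase, averaged 10.79 ± 0.12 in OXY and 9.44 ± 0.25 in PYL (change 1.35, SE 0.10, limma adjusted p = 0.00015). PDHB, a subunit of pyruvate dehydrogenase, changed by 1.11 and DLD, the lipoamide dehydrogenase it shares with other complexes, by 0.90. Among 20 electron carriers and related proteins outside the symbol rule, 11 (55.0%) rose and 2 fell. AIFM1, a flavoprotein of the intermembrane space needed for respiratory chain assembly, had the largest change (1.35, SE 0.10, limma adjusted p = 0.00016). UCP2, an uncoupling protein family member, fell by 0.73 in OXY (limma adjusted p = 0.0041) and SQOR, which passes electrons from sulfide to ubiquinone, had a change of -0.59 (limma adjusted p = 0.034). Of 37 mitochondrial ribosomal proteins, which translate the mitochondrially encoded subunits, 13 (35.1%) rose and 0 fell. Their median change was 0.26, and the largest were those of MRPL3 (0.87), MRPL16 (0.75) and MRPL28 (0.67).

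Of 13 measured regulators of mitochondrial gene expression, 4 (30.8%) were higher in OXY and 9 did not pass, beside 8.52% of named genes higher in OXY. ESRRB, an estrogen-related orphan receptor that is also among the parietal cell markers below, had 6.75 ± 0.49 in OXY and 4.52 ± 0.58 in PYL, with no overlap (change 2.22, SE 0.10, limma adjusted p = 1.1e-05), more than any of the 52 genes. TFAM, which packages and transcribes the mitochondrial genome, changed by 0.39 (limma adjusted p = 0.037), MTERF1 by 0.57 and TFB1M, a mitochondrial rRNA methyltransferase, by 0.30. NRF1, a transcription factor of many nuclear respiratory genes, had a change of -0.08 and did not pass.

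**Figure D4:**
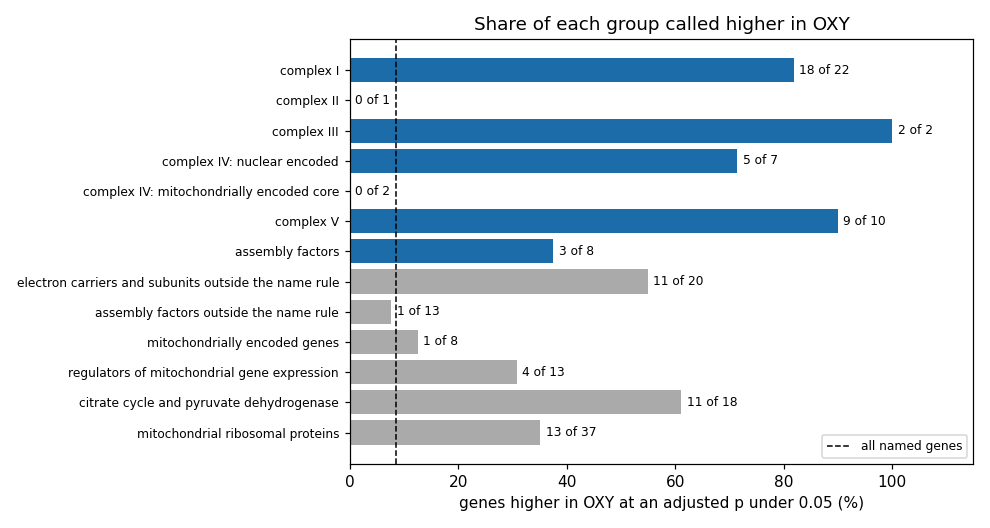
Share of the genes in each group that were higher in OXY at an adjusted p under 0.05 (horizontal axis, %), with counts beside the bars, blue for the 52 genes and grey for related lists (COX1 and COX2 are also among the 8 mitochondrially encoded genes). The dashed line is the share over all named genes (8.52%), and complexes I, III and V and the nuclear-encoded genes of complex IV lie well to its right.

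The rows of the 52 genes had mostly high signal: 47 were above the median of named genes, and 5 of the 12 with a mean below 7 passed. Signal also depends on the probes of a row, so these ranks describe the signal of rows and not the abundance of transcripts. Among the 1260 named genes at or above the median signal of the 52 genes, 15.9% were higher in OXY and the median change was 0.03. The share of 71.2% was above both backgrounds. Since the set was chosen with earlier results of these data known, this is a description and carries no test.

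**Figure D5:**
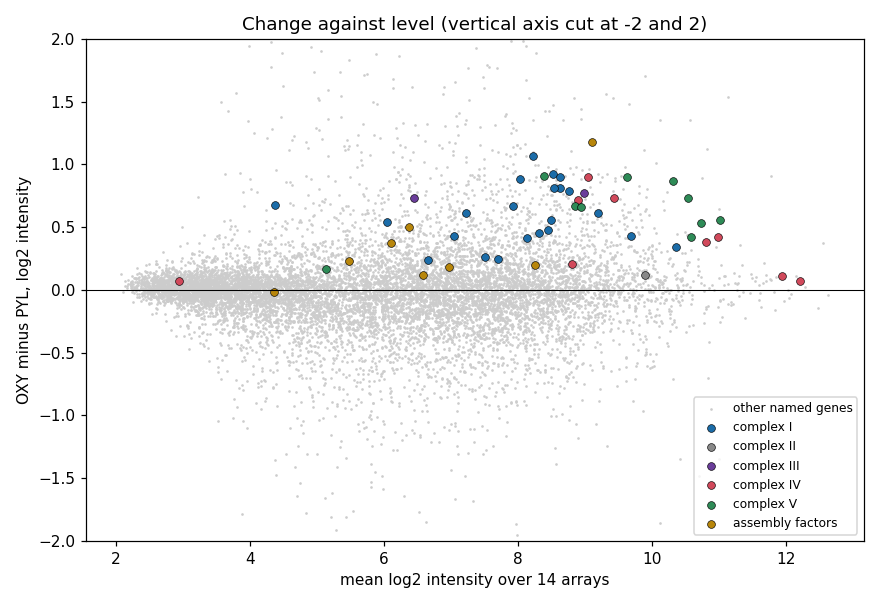
Change (OXY minus PYL, log2 intensity, vertical axis, shown from -2 to 2) against mean log2 intensity over 14 arrays (horizontal axis) for the 52 genes in colour and the other named genes in grey. Most of the 52 genes lie above 0 between 6 and 11, and COX1 and COX2 at the right end lie close to 0 (0.07 and 0.11).

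Markers of cell types were compared beside these changes. Of 14 parietal cell markers listed, 11 had a row with their single symbol, and all 11 were higher in OXY. Their median change was 5.07, and their summed intensity was 10200 to 16800 in OXY and 320.0 to 1260 in PYL. The paper reports CLIC6 and SLC4A2, listed markers without such a row, as more expressed in OXY. Without SLC9A4, the marker with the highest PYL signal, the sums were 8590 to 14100 in OXY and 158.0 to 291.0 in PYL. The medians over all rows of the PYL arrays were 4.89 to 5.73. ATP4A, a defining parietal marker, had 4.21 to 4.97 in PYL. ATP4B had 5.02 to 6.42, HRH2 4.73 to 5.66 and SLC9A4 7.31 to 9.93 in PYL. The remaining measured parietal markers had 2.51 (AQP4) to 5.17 (ESRRB) there. Of the 4 measured genes listed for chief cells 3 were higher in OXY, and the summed intensity was 9840 to 15600 in OXY and 9150 to 14800 in PYL. The fourth, GIF, was lower in OXY in all 7 pigs without passing (change -1.49, limma adjusted p = 0.075). The paper reports GIF as more expressed in PYL, and whether it marks chief cells in the pig was not tested. The 3 measured smooth muscle markers did not pass (median change -0.45, summed intensity 2320 to 7220 in OXY and 3240 to 9750 in PYL), nor did the 2 surface mucous cell markers (median -0.15, summed intensity 7080 to 10600 in OXY and 8350 to 11700 in PYL) or the 5 T cell markers (median -0.25, summed intensity 509.0 to 1880 in OXY and 486.0 to 1900 in PYL). The parietal markers thus moved in the same direction as the 52 genes in every pig, by medians of 4.44 to 5.31, and their part in the changes was not tested. The median difference of the smooth muscle markers was -0.91, 0.86, 0.33, -0.75, -0.55, -0.06 and -2.06 in pigs 1 to 7, and the 3 markers differed in direction, with changes of 0.25 for ACTA2, -0.45 for TAGLN and -0.71 for CNN1. In PYL the summed intensity of these markers was 9750 in pig 4 and 7980 in pig 7, and 3240 to 4210 in the other pigs. In OXY the sum was 7220 in pig 4 and 2840 in pig 7, and 2320 to 6420 in the other pigs. Pigs 4 and 7 are those whose PYL arrays stood apart. The part of the muscle content in the changes of the 52 genes was not tested.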

How the data were processed

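RNA of OXY and PYL of 7 pigs was measured on 14 Affymetrix Porcine Gene 1.1 ST arrays. The deposited intensity values are linear, made by the authors with a Robust Multichip Analysis in Expression Console, while the sources used here do not give the steps applied. The log2 of each value was taken, with no further normalization. Rows (27460) were named from the platform annotation, and 11982 carried a single symbol. Genes of the related and marker lists counted as measured when a row carried them as its single symbol. Genes were taken by symbol, and the members, roles and lists were chosen with earlier results of these data known.

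Each row was tested with limma (version 3.58.1, R 4.3.3) with the pig as a block, since both samples come from the same animal, and p-values were adjusted over all rows (Benjamini-Hochberg, threshold 0.05). The deviations of a pig's 2 arrays from the mean of their mucosa correlated by 0.017 to 0.621, and by -0.027 to 0.619 after removing the array set, with 3 of 7 pigs (1, 2 and 7) below 0.1. SE and 95% confidence intervals are those of limma. Exact two-sided sign-flip permutation tests over 7 pigs have 128 patterns and a smallest p of 0.016. Precision is limited by having 14 arrays. The scripts were tested on simulated data.

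Given in full were up to 5 genes per complex with the largest change among those passing in all 7 pigs, the largest opposite change, isoform pairs and all genes of complexes with few members. Up to 3 genes of each related list were also named, and others after their values were seen. Alternatives were other normalizations, filters, tests and subsets of pigs. No gene coordinates or sequences were used here.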

Additional observations from a re-analysis of the deposited data

Results flagged for a closer look

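In 2 of the 104 combinations of gene and mucosa, 1 pig lay far from the other 6 relative to the range of the group, where chance alone gives about 1 in 20. NDUFC2, a membrane arm subunit of complex I, had 8.59 in PYL of pig 6, with the nearest other PYL array at 8.0 and the lowest at 7.70. Its difference between OXY and PYL in this pig was 0.10. UQCRB of complex III had 8.83 in OXY of pig 1, with the nearest other OXY array at 9.33 and the highest at 9.61. Its difference in this pig was still 0.57.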

How the results depend on the processing

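The count of genes higher in OXY, 37, fell to 7 with no replicate block (1.68% of named genes), to 17 in pigs 1 to 3 and to 24 in pigs 4 to 7. These fits have fewer pigs or leave the spread between pigs, including the shift between the array sets, in the error. It was 34 to 41 with median centring, quantile normalization, a filter on low signal, another variance prior, array weights, the methods' test, the mean of rows or without pigs 4 and 7, and 33 to 37 when each pig was left out in turn. Of the 37 genes, 33 passed in each of these 7 fits, and NDUFB6, NDUFA12, COX7C and NDUFAF7 did not. Requiring a change of 0.5 left 27. The count higher in PYL was 0 in all settings run, and the median change was 0.49 to 0.58. The excess of ATP5G3 over ATP5G1 was 0.09 to 0.25 with single pigs left out, and without pig 7 its exact sign-flip p was 0.031. That p is the smallest possible once the only pig of opposite sign is left out, so it decides nothing. The rows of COX8H and ATP5I had low signal (means of 2.94 and 5.13 over all arrays), and the part of background in their small changes was not tested.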

Other observations

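Several genes had further rows that were not used above. The second row of NDUFA6, with a signal of 4.96 ± 0.27 in OXY and 5.01 ± 0.55 in PYL, had a change of -0.04 (limma adjusted p = 0.90), where the row used changed by 0.54. The second row of ATP5B (5.86 ± 0.43 in OXY and 5.72 ± 0.28 in PYL) changed by 0.14 (limma adjusted p = 0.46) beside 0.56 in the row used, and that of COX7C (3.05 ± 0.46 in OXY and 2.95 ± 0.58 in PYL) by 0.09 beside 0.38. The second row of ATP5J2 changed by 0.47 (limma adjusted p = 0.0011) and that of COX10 by 0.32 (limma adjusted p = 0.18). Both rows of COX7A2 hold the same values.

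A further 3 rows name a gene of the rule together with another gene and were not counted. The row shared by the mitochondrial genes ATP8, ATP6 and COX3 averaged 12.03 ± 0.20 in OXY and 11.98 ± 0.27 in PYL (change 0.05, limma adjusted p = 0.61). The row of COMMD9 and SDHAF2 changed by 0.29 (limma adjusted p = 0.051, 7 of 7 pigs). The row of POPDC2 and COX17 had a change of -0.79 with a wide spread (5.52 ± 1.01 in OXY and 6.32 ± 1.80 in PYL, limma adjusted p = 0.44), unlike the row of COX17 alone.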
